A study of Mus musculus with 6 samples.

Results

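The 10 genes Fap, Pdpn, Postn, Inhba, Tnc, Thbs1, Thbs2, Spp1, Lox and Tgfb1, which are widely used to describe activated fibroblasts in tumours, were followed across 6 RNA-seq libraries of mouse colon. They were taken by symbol from a table of 20170 genes. All 10 were present and all 10 passed the filter on low counts, which kept 15890 genes. Every mouse was wild type, of strain C57BL/6J, and received the mutagen azoxymethane (AOM) once at 10 mg/kg and then rounds of the irritant dextran sulfate sodium (DSS) at 2% in the drinking water, a protocol that gives inflammation-driven colon tumours. The 3 libraries called control here come from mice with AOM and DSS only. The 3 called stressed come from mice that were also held in a ventilated tube for 3 to 4 hours per day. Age, sex, the place along the colon and the share of tumour in each piece are not given in the labels, nor is it said that each library is a separate mouse, so p-values measure the spread between these libraries. The comparison asks how the colon of restrained mice differs from that of unrestrained ones.

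The libraries held 27160547 to 33017500 counts, and the 10 genes together took 0.0450% to 0.0807% of them. A count of 0 allows a level of up to 3 counts, which is 0.0909 to 0.110 CPM (counts per 1000000 counts) and covers counting error only. The labels name the cell type as colorectal cancer cells, whereas the RNA held epithelial, muscle and stromal transcripts at once. In CPM summed over each list, 7 epithelial markers such as Epcam reached 8513 to 13030, 7 smooth muscle markers such as Myh11 2370 to 7132, and 11 general fibroblast markers such as Col1a1 and Pdgfrb 1063 to 2338. The values below are thus those of mixed colon tissue, in which fewer fibroblasts and less RNA per fibroblast cannot be told apart. Some libraries stood apart. Squamous epithelium markers summed to 2914 CPM in control replicate 3 and to 3.76 to 65.2 CPM in the other 5. Target genes of Wnt signalling that are high in colon tumours, such as Axin2 and Lgr5, summed to 69.8 CPM in control replicate 1, to 444 and 329 CPM in control replicates 2 and 3, and to 563 to 1786 CPM in stressed libraries. These sums also separated the groups. Of these 6 genes 6 were higher, and for 5 the groups did not overlap, where 12.5% of all genes were apart and higher. Whether the share of tumour differed between the groups, and its part in the member values, was not tested.

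Resting fibroblasts of the gut wall, some of them close to crypts, make collagen and growth signals. In wounds and tumours part of them become activated, under transforming growth factor beta (TGF-beta) and related ligands, and secrete a stiffer matrix. That matrix holds crosslinked collagen and matricellular proteins, which sit in the matrix without building it and bind integrins and other receptors on nearby cells. The genes fall into ligands of the TGF-beta family (Tgfb1 and Inhba), matricellular proteins (Thbs1, Thbs2, Tnc, Postn and Spp1), a collagen-crosslinking enzyme (Lox) and proteins of the fibroblast surface (Fap and Pdpn). Several are also made by other cells. Macrophages and epithelium can make Spp1, lymphatic endothelium and mesothelium carry Pdpn, and platelets and macrophages store or make Thbs1 and Tgfb1.

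The regions around the start sites of Thbs2 and Inhba are shown because these were the only members whose control and stressed libraries did not overlap. Each window runs from 250 bases before to 50 bases after a start site, 5′ to 3′ on the strand of the gene, from RefSeq on build GRCm38.p6. The counts were made on another build, so these positions do not refer to the count table. Thbs2 lies at chr17:14694213-14694512 on the minus strand and Inhba at chr13:16011601-16011900 on the plus strand. Capitals mark matches, on either strand, to TATAAA, the core of the TATA box, or to CAGACA, a SMAD-binding element of the TGF-beta pathway.
Thbs2: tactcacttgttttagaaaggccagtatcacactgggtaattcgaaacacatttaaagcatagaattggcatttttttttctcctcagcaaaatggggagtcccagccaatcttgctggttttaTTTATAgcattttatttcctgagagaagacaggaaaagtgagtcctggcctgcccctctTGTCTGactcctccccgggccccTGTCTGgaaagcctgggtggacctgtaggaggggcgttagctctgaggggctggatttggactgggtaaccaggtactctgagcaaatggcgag
Inhba: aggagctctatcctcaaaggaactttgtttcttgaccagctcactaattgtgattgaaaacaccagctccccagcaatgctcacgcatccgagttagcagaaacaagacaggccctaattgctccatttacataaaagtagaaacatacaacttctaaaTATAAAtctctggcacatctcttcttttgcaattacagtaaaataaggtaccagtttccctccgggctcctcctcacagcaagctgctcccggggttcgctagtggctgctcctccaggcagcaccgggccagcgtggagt
In the Thbs2 window CAGACA occurred on the opposite strand, as TGTCTG, starting 67 and 44 bases before the start site, and TATAAA on the opposite strand, as TTTATA, 126 bases before it. In the Inhba window TATAAA occurred 91 bases before the start site and CAGACA did not occur. RefSeq promoter windows could be matched for 7 of the 10 genes, in 10 windows, of which the pair of Tnc windows overlap. CAGACA was found in 4 of these 10 windows, from Tnc, Spp1 and Thbs2, against 21.0% of all 32851 windows in the table. TATAAA was found in 6 of 10, from Postn, Tnc, Spp1, Inhba and Thbs2, against 13.6% of all. The AP-1 element TGANTCA and the TEAD element GGAATG were found in 0 of 10 windows, against 7.81% and 14.7% of all. These are matches of letters only. The matches do not overlap each other in the windows shown.

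Levels per transcript length were compared on the FPKM scale (fragments per kilobase, scaled to depth, as the authors deposited them). Postn was the most abundant of the 10 per length, at a mean of 54.6 ± 15.5 FPKM over the 6 libraries (SD), and Thbs1 came next at 25.7 ± 10.7. Spp1 at 15.5 ± 11.5, Tnc at 14.8 ± 5.21, Tgfb1 at 10.3 ± 2.80, Thbs2 at 9.67 ± 5.0 and Pdpn at 9.41 ± 3.56 FPKM followed and overlapped. From Spp1 to Thbs2, each gene stood above the next in the order in 3 or 4 of 6 libraries, so neighbours in this stretch did not differ beyond their spread. Lox had 3.85 ± 1.87 FPKM and lay below Pdpn in 6 of 6 libraries. Fap, at 1.27 ± 0.345, and Inhba, at 0.975 ± 0.892, were the least abundant. Fap, the protease whose name stands for fibroblast activation protein, was thus measured near the low end, with 71 to 145 counts per library, and Inhba with 10 to 131.

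**Figure D1:**
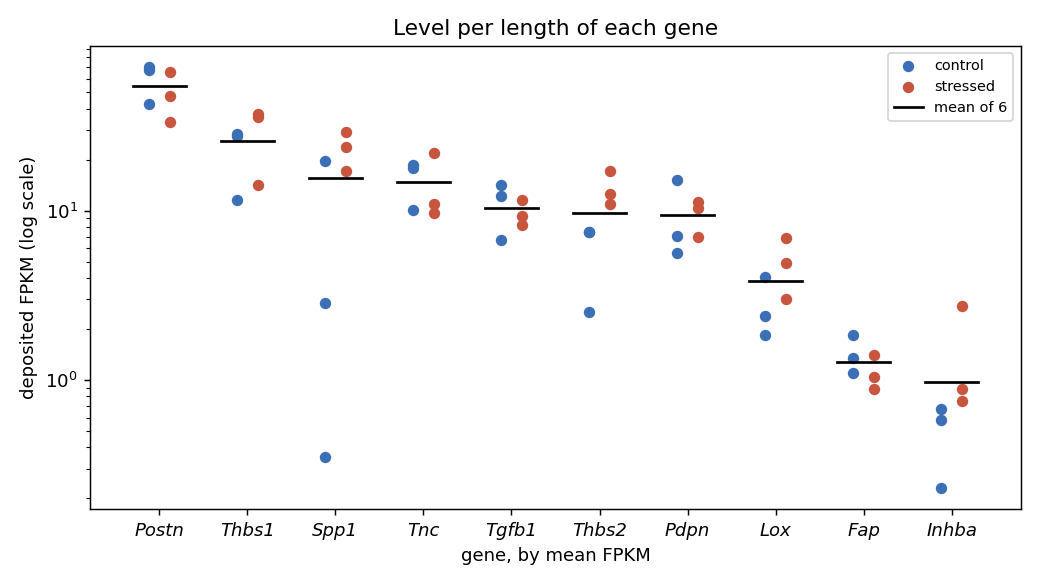
Deposited FPKM of each gene in every library, on a log axis, with genes ordered by their mean over the 6 libraries (black line). Blue points are the 3 control libraries and red points the 3 stressed ones; Postn lies between 33.11 and 70.31 FPKM and Inhba between 0.23 and 2.74, and Spp1 has the widest spread, with control replicate 1 at 0.35.

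Between stressed and control libraries the 10 genes did not move as a block. Thbs2, Inhba, Spp1 and Lox had higher means in stressed libraries, by 2.27-fold, 2.89-fold, 3.07-fold and 1.75-fold. Thbs1 was 1.24-fold of control and Pdpn 0.999-fold. Fap, Postn, Tgfb1 and Tnc had lower means, at 0.750-fold, 0.792-fold, 0.855-fold and 0.881-fold. None of these differences passed the threshold. By the quasi-likelihood test of edgeR on counts, with adjustment over all 15890 genes, 0 of the 10 genes had an adjusted p under 0.05, as did 0 genes of the table (0.00%).

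The counts of members follow, each beside the share of all tested genes. At an unadjusted p under 0.05 in edgeR 1 member was higher, Thbs2, where 7.82% of all genes were higher, and 0 were lower, where 8.82% were lower. DESeq2 called 1 member higher at an adjusted p under 0.05, again Thbs2 (adjusted p = 0.0425), where it called 2.28% of all genes, and 0 lower, where it called 2.87%. limma-voom called 0 members and 0 of all genes, with Thbs2 and Spp1 at an unadjusted p under 0.05. The groups did not overlap for Thbs2 and Inhba, both higher, where 12.5% of all genes were apart and higher, and for 0 members on the lower side, where 11.2% were. Of the members 5 had a log2 fold change above 0, where 48.4% of all genes had. Their median log2 fold change was 0.15, and that of all tested genes was -0.01. Apart from the DESeq2 call of Thbs2, the members' counts therefore lay near the background of the table.

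**Figure D2:**
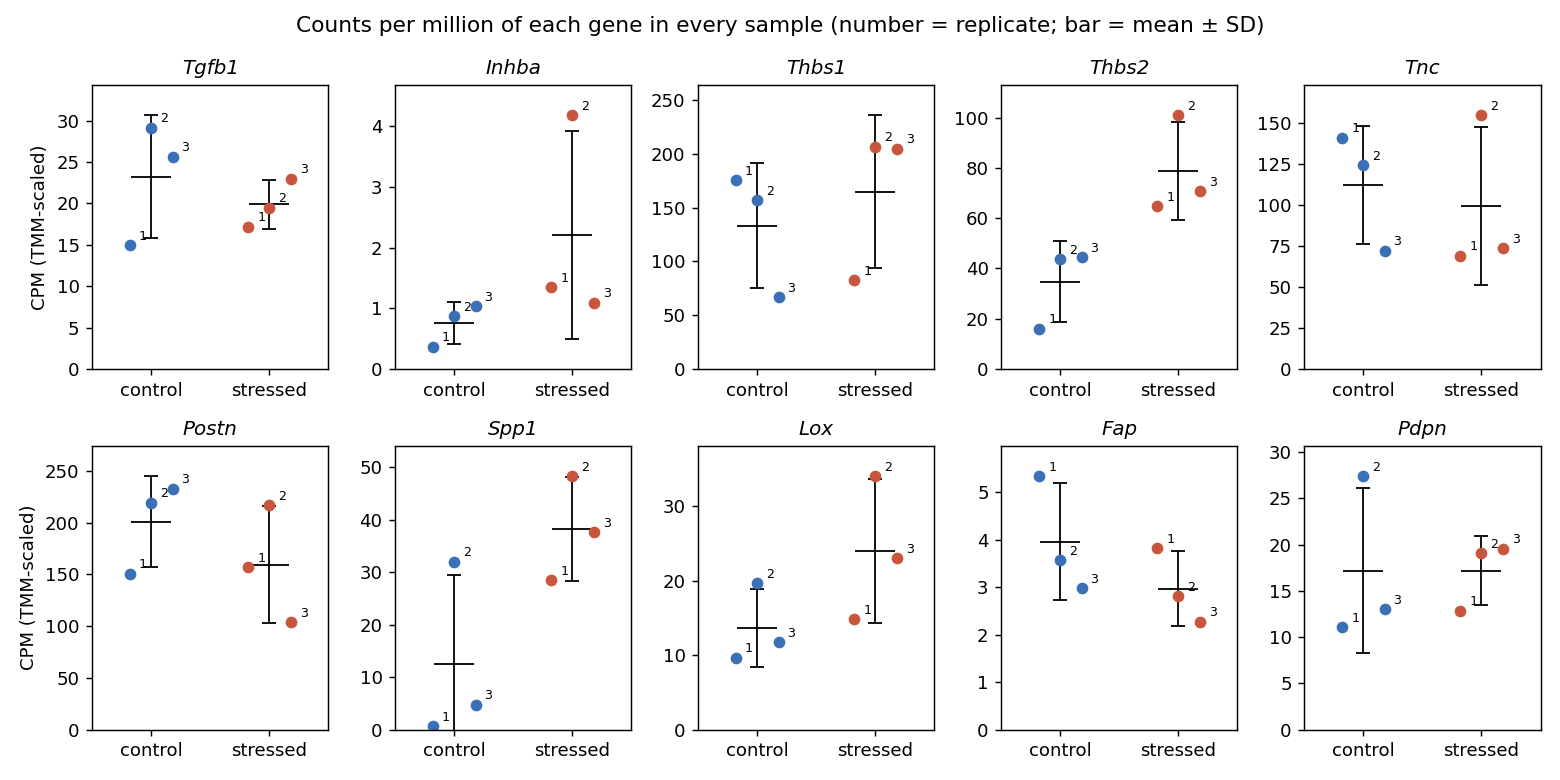
CPM of each gene in every library, scaled with TMM, on axes that start at 0; numbers give the replicate, the horizontal bar is the mean of 3 and the whiskers its SD (the lower whisker of Spp1 in controls runs below 0 and is not drawn there). For Thbs2 the stressed libraries lie at 64.7 to 101 CPM and the control libraries at 16.0 to 44.4, and for Fap, Postn, Tnc and Tgfb1 the groups overlap.

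Values of single libraries are given in the order of replicates 1, 2 and 3. Tgfb1 encodes TGF-beta 1, the main activator of fibroblasts, which is secreted in a latent form. It was measured at 14.9, 29.2 and 25.6 CPM in controls and at 17.2, 19.5 and 23.0 CPM in stressed libraries. All stressed values lay inside the range of the controls. Its log2 fold change was -0.23 ± 0.26 (SE, edgeR adjusted p = 0.667), and the ratio of its highest to its lowest library, 1.95, was the smallest of the 10. The fold change was -0.46 without control replicate 1 (edgeR unadjusted p = 0.0339, adjusted p = 0.347) and -0.03 without control replicate 2.

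Inhba encodes the beta A chain that pairs to form activin A, a ligand that signals through the same Smad proteins as TGF-beta. It stood at 0.369, 0.866 and 1.03 CPM in controls and at 1.35, 4.18 and 1.09 CPM in stressed libraries. The groups did not overlap, but stressed replicate 3 lay only just above control replicate 3 (34 counts in each), and stressed replicate 2 stood far above all others. Stressed minus control, the log2 fold change was 1.53 ± 0.66 (SE, edgeR adjusted p = 0.305), and without stressed replicate 2 it was 0.69 (adjusted p = 0.674). On build GRCm38.p6 a transcribed pseudogene, B230303A05Rik, overlaps Inhba, and with the strand setting unknown its reads cannot be told apart from those of Inhba.

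Thbs1 encodes thrombospondin-1, a matricellular protein that can release TGF-beta from its latent form. It stood at 176, 157 and 66.9 CPM in controls and at 82.6, 207 and 205 CPM in stressed libraries. Each group thus held 1 low library, control replicate 3 and stressed replicate 1, and the groups overlapped. The log2 fold change was 0.31 ± 0.47 (SE, edgeR adjusted p = 0.750), with -0.01 when control replicate 3 was left out and 0.64 when stressed replicate 1 was. Platelet markers summed to 5.97, 17.5 and 271 CPM in controls and to 10.5 to 18.7 CPM in stressed libraries, with 1 of 4 tested markers higher (Pf4, at 0.32 in log2 fold change) and 3 lower, and Gp9 at 0 in 2 libraries. The high sum of control replicate 3 is Ppbp, at 260 CPM there and at most 3.27 CPM elsewhere. In that library, in which squamous markers summed to 2914 CPM, Pf4 was at 5.75 CPM, within the range of the others. Itga2b and Gp1ba, at 4.08 and 1.31 CPM there, were slightly above the others. The part of platelets in the Thbs1 and Tgfb1 values was not tested.

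Thbs2 encodes thrombospondin-2, a relative that lacks the motif by which thrombospondin-1 activates TGF-beta. It stood at 16.0, 43.7 and 44.4 CPM in controls and at 64.7, 101 and 70.8 CPM in stressed libraries. Every stressed library lay above every control library. Its log2 fold change was 1.18 ± 0.40 (SE, edgeR adjusted p = 0.259). With 1 library left out it ran from 0.84, without control replicate 1, to 1.40, without control replicate 3, with adjusted p from 0.236 to 0.555. Among all tested genes Thbs2 ranked 1319 by p, within the first 8.30%. The log2 ratio of Thbs2 to Thbs1 CPM was -1.96 ± 1.44 in controls and -0.97 ± 0.59 in stressed libraries (SD, n = 3 each). The difference of 0.99 was smaller than the SD of the controls. A two-sided exact permutation test gave p = 0.4, but with 3 libraries against 3 it cannot go below 0.1, so it cannot settle whether the paralogs differ in response.

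Tnc encodes tenascin-C, a large matrix glycoprotein that adult tissue makes anew in wounds and tumours. It stood at 141, 124 and 72.0 CPM in controls and at 68.8, 154 and 73.6 CPM in stressed libraries. Control replicates 1 and 2 and stressed replicate 2 were high and the other 3 libraries low, whatever the group. Stressed minus control, the log2 fold change was -0.18 ± 0.38 (SE, edgeR adjusted p = 0.826), and it was -0.65 without stressed replicate 2 and 0.0285 without stressed replicate 1. Its locus overlaps the long noncoding RNA 8030451A03Rik in RefSeq.

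Postn encodes periostin, which binds integrins and collagen and helps to assemble the matrix. It stood at 151, 219 and 233 CPM in controls and at 157, 217 and 104 CPM in stressed libraries. Stressed replicate 3 was the lowest of all, and the other stressed libraries lay within the control range. The log2 fold change was -0.34 ± 0.29 (SE, edgeR adjusted p = 0.554), with -0.62 when stressed replicate 2 was left out and -0.10 when stressed replicate 3 was. Postn overlaps the long noncoding RNA Gm31095 in RefSeq.

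Spp1 encodes osteopontin, a secreted phosphoprotein that binds integrins and CD44. It had the widest range of the 10 genes. The controls stood at 0.627, 32.0 and 4.71 CPM and the stressed libraries at 28.5, 48.3 and 37.6 CPM. Stressed libraries were all above 28 CPM, whereas only 1 control, replicate 2, reached that level, and it lay above stressed replicate 1, so the groups overlapped. The highest library held 77.1 times the CPM of the lowest, and 0.678% of 11945 genes with a mean of at least 5 CPM had a larger ratio. For those genes the median ratio was 1.51. Its log2 fold change was 1.62 ± 1.15 (SE, edgeR adjusted p = 0.482), with 3.82 when control replicate 2 was left out (adjusted p = 0.297) and 1.06 when control replicate 1 was left out. In limma-voom it was 3.00 with all libraries (unadjusted p = 0.0182, adjusted p = 0.258). Macrophages can also make Spp1. Their markers summed to 413, 1122 and 773 CPM in controls and to 525, 549 and 1036 CPM in stressed libraries. None of these 13 genes was at 0, and 7 were higher and 6 lower. Arg1 gave 185 CPM of the sum in control replicate 3, and stood at 0.590 to 47.9 CPM in the other libraries. The part of macrophages in the Spp1 values was not tested.

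Lox encodes lysyl oxidase, the enzyme that starts the crosslinking of collagen and elastin. It stood at 9.69, 19.7 and 11.8 CPM in controls and at 14.8, 34.1 and 23.0 CPM in stressed libraries. Stressed replicates 2 and 3 lay above all controls and stressed replicate 1 below control replicate 2. Stressed minus control, the log2 fold change was 0.81 ± 0.37 (SE, edgeR adjusted p = 0.327), and without stressed replicate 2 it was 0.47.

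Fap encodes a membrane protease of the dipeptidyl peptidase family that cuts after proline. It stood at 5.35, 3.57 and 2.98 CPM in controls and at 3.83, 2.81 and 2.27 CPM in stressed libraries. It was highest in control replicate 1, the library in which 6 of the other genes were lowest. The log2 fold change was -0.42 ± 0.35 (SE, edgeR adjusted p = 0.545), and it ran from -0.63 without stressed replicate 1 to -0.14 without control replicate 1.

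Pdpn encodes podoplanin, a mucin-like surface protein that binds CLEC-2 on platelets. It stood at 11.1, 27.4 and 13.1 CPM in controls and at 12.9, 19.1 and 19.6 CPM in stressed libraries. Control replicate 2 was the highest library, and the stressed values lay within the control range. The group means were 17.19 ± 8.91 and 17.17 ± 3.74 CPM (SD, n = 3 each), with a log2 fold change of -0.00097 ± 0.37 (SE, edgeR adjusted p = 0.999). Without control replicate 2 it was 0.51 (adjusted p = 0.376). Markers of lymphatic endothelium, which also carries podoplanin, summed to 39.1 to 70.7 CPM in controls and 58.1 to 127 CPM in stressed libraries. Of 5 tested, 4 were lower, such as Lyve1 at 14.8 to 19.0 and 5.91 to 13.7 CPM. Prox1, which epithelium can also express, was higher, at 0.369 to 23.3 and 40.1 to 104 CPM, and made up most of the sum in each stressed library. The higher sums there thus do not describe the other lymphatic markers. Mesothelial markers summed to 7.79 to 12.1 CPM in controls and 8.88 to 26.9 CPM in stressed libraries, mostly Msln, at 5.42 to 11.4 and 7.32 to 24.4 CPM. Of the other mesothelial markers Upk1b and Wt1 had log2 fold changes of -0.13 and 0.05, Upk3b reached 2.18 CPM in control replicate 1 and 0.416 CPM or less in the other libraries, and Lrrn4 was at 0 in 3 libraries. The part of these cells in the Pdpn values was not tested.

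**Figure D3:**
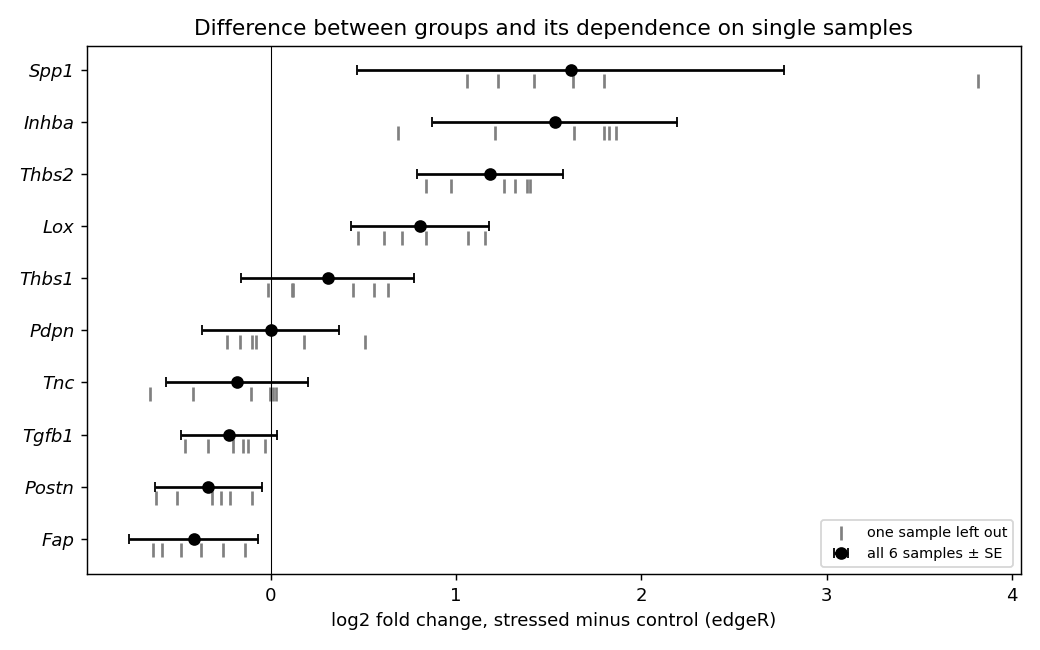
Log2 fold change of each gene, stressed minus control, from edgeR with all 6 libraries (black points, whiskers are ± SE) and with each library left out in turn (grey ticks). Spp1, Inhba, Thbs2 and Lox stay above 0 whichever library is left out, at 0.47 or more, while the ticks of Thbs1, Pdpn and Tnc fall on both sides of 0.

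The highest and lowest values fell mostly in the same few libraries. Stressed replicate 2 was the highest library for 6 of the 10 genes, namely Inhba, Tnc, Thbs1, Thbs2, Spp1 and Lox, whereas it was the highest for 13.8% of all tested genes. Control replicate 1 was the lowest for 6, namely Pdpn, Inhba, Thbs2, Spp1, Lox and Tgfb1, against 27.6% of all genes. After each gene's log2 CPM was centred on its own mean, the average of the 10 genes was -0.79, 0.31 and -0.36 in controls and -0.03, 0.71 and 0.16 in stressed libraries. Control replicate 2 thus lay above stressed replicates 1 and 3. Inhba and Thbs2 had like profiles, with a mean absolute difference of 0.315 in centred log2 CPM over the 6 libraries. So had Pdpn and Tgfb1, at 0.244, Postn and Tgfb1, at 0.334, and Thbs1 and Tnc, at 0.342. Lox followed the average of the other members most closely, at 0.194, and Spp1 least, at 1.70.

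**Figure D4:**
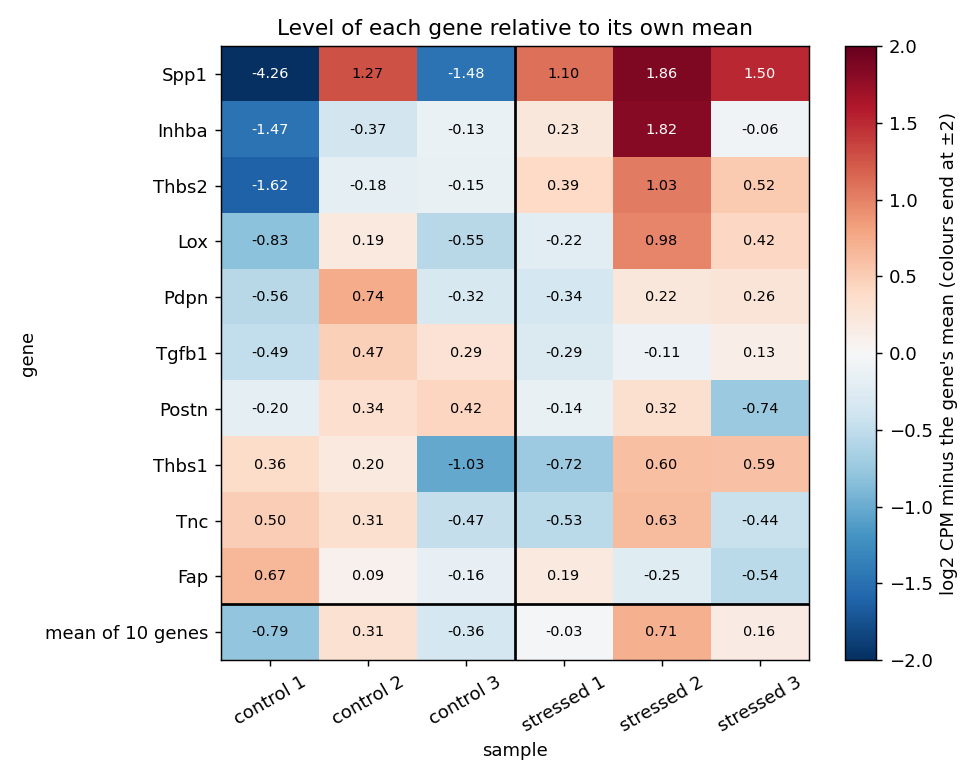
Centred log2 CPM (prior count 2) of each gene in each library; red is above and blue below the gene's own mean, and the bottom row is the mean of the 10 genes. Spp1, Inhba, Thbs2 and Lox are bluest in control replicate 1, and Fap runs the other way, with 0.67 in that library and -0.54 in stressed replicate 3.

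Of 11937 other genes with a mean of at least 5 CPM, the 5 whose centred profile over the 6 libraries was most like the average of the 10 were Wnt5a, Podxl, Col1a1, Col4a2 and Mmp19. Their mean absolute differences from it were 0.0781, 0.0929, 0.10, 0.104 and 0.104 in log2 CPM. That average includes the wide range of Spp1, and no search was run without Spp1. Col1a1 encodes a chain of type I collagen, the main collagen of fibroblasts, and stood at 133 and 199 CPM in control and stressed means (edgeR adjusted p = 0.408). Wnt5a encodes a secreted Wnt ligand of gut mesenchyme, and stood at 15.4 and 23.6 CPM (edgeR adjusted p = 0.381).

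The summed CPM of the 11 general fibroblast markers was 1063, 2232 and 1612 in controls and 1498, 2338 and 2182 in stressed libraries. It was lowest in control replicate 1, as were most members. The members were therefore also expressed per 100 CPM of these markers, a ratio chosen after the values were seen. On this scale Thbs2 was 1.51, 1.96 and 2.76 in controls and 4.32, 4.32 and 3.25 in stressed libraries, so the groups stayed apart. Spp1 (0.0590 to 1.43 in controls, 1.72 to 2.07 in stressed libraries) and Lox (0.730 to 0.912 and 0.989 to 1.46) also stood apart and higher. Tgfb1 stood apart and lower, at 1.31 to 1.59 in controls and 0.833 to 1.15 in stressed libraries. Inhba overlapped, at 0.0347 to 0.0641 and 0.0499 to 0.179. In all 3 members were apart and higher, where 2.55% of all tested genes were, and 1 apart and lower, where 8.39% were. Division by the marker sum acts differently on genes that follow that sum and on genes that do not. These shares therefore cannot show an enrichment of the members. On plain CPM 2 members were apart and higher, where 12.5% of all genes were. The marker sum rests mostly on Col3a1, Col1a2 and Vim, and it stands for fibroblast RNA only as far as those genes do. Vim was at 115, 301 and 216 CPM in controls and at 171, 409 and 703 CPM in stressed libraries. The ratios were not computed without Vim, so its part in these separations, such as the lower one of Tgfb1, was not tested.

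Genes of the rest of the TGF-beta pathway lay on both sides of 0, and 0 genes of any list below had an edgeR adjusted p under 0.05. In DESeq2, which called 2.28% of all genes higher and 2.87% lower, several of these genes had a smaller adjusted p than Thbs2. Furin (DESeq2 adjusted p = 0.016) and Smoc2 (0.0384) were called higher. Acta2 (1.8e-05), Sparcl1 (2.13e-05), Tagln (3.36e-05), Itga5 (0.00723), Tgfb2 (0.0287) and Itga4 (0.0384) were called lower. Of 6 TGF-beta and activin ligands 3 were higher and 3 lower, with a median log2 fold change of -0.04. Tgfb2, a second TGF-beta isoform, stood apart and lower, at 9.03 to 18.4 CPM in controls and 4.04 to 7.21 CPM in stressed libraries (log2 fold change -1.21 ± 0.35, edgeR adjusted p = 0.232). Inhbb, the beta B chain of activin, was at 3.83 to 11.7 and 6.06 to 27.3 CPM. Of 10 receptors and Smads 7 were higher and 3 lower (median 0.13), with Tgfbr2, the type II receptor of TGF-beta, at 117 to 149 CPM in controls and 156 to 172 CPM in stressed libraries (log2 fold change 0.30 ± 0.12). Tgfbr3, a co-receptor, had a log2 fold change of -0.56 and Smad2, a signal carrier, of 0.16.

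Of 10 genes of TGF-beta latency and activation 3 were higher and 7 lower (median -0.03). Furin, which cleaves the TGF-beta and activin precursors, was at 49.8 to 67.3 CPM in controls and 81.0 to 101 CPM in stressed libraries (log2 fold change 0.61 ± 0.14, edgeR adjusted p = 0.191). Nrros, which tethers latent TGF-beta on myeloid cells, was at 10.95 to 31.2 and 8.46 to 10.4 CPM, and Itgb8, an integrin chain that activates it, had a log2 fold change of 1.16. Of 9 inhibitors 5 were higher and 4 lower (median 0.07). Fst, which encodes the activin-binding protein follistatin, was at 2.17 to 4.74 CPM in controls and 3.19 to 11.95 CPM in stressed libraries. Smurf1, a ubiquitin ligase for pathway components, and Bambi, a decoy receptor, had log2 fold changes of 0.35 and 0.59.

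Of 10 TGF-beta target genes 5 were higher and 5 lower (median 0.14). The lower side was led by Acta2 and Tagln, the actin and the actin-binding protein that mark myofibroblasts and also smooth muscle. Acta2 was at 1136, 951 and 1239 CPM in controls and at 544, 626 and 436 CPM in stressed libraries (log2 fold change -1.05 ± 0.17, edgeR adjusted p = 0.191). Smooth muscle markers summed to 5235 to 7132 CPM in controls and 2370 to 3905 CPM in stressed libraries, with 0 of 7 higher and 7 of 7 lower, 6 of them called lower by DESeq2. The part of muscle in the Acta2 and Tagln values was not tested. Ccn1, listed in the table as Cyr61 and a matricellular target of TGF-beta, was at 7.85 to 17.97 CPM in controls and 15.4 to 30.9 CPM in stressed libraries (log2 fold change 1.08 ± 0.39).

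Of 16 other matricellular genes tested 11 were higher and 5 lower, with a median log2 fold change of 0.33. Sparcl1, an anti-adhesive glycoprotein, was at 258 to 335 CPM in controls and 108 to 157 CPM in stressed libraries (log2 fold change -1.09 ± 0.18, edgeR adjusted p = 0.191). Smoc2, a calcium-binding matrix protein of crypt-base cells and stroma, was at 30.1, 101 and 63.2 CPM in controls and 99.9, 197 and 197 CPM in stressed libraries, with control replicate 2 just above stressed replicate 1 (log2 fold change 1.35 ± 0.47). Of 12 genes of collagen crosslinking and modification 6 were higher and 6 lower (median 0.08). The 4 relatives of Lox lay between -0.18 and 0.35 in log2 fold change, and Plod2, a lysyl hydroxylase, Tgm2, a transglutaminase, and P4ha1, a prolyl hydroxylase, at -0.59, 0.52 and -0.34.

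Of 11 tested receptors and partners of the members 3 were higher and 8 lower (median -0.22). Itga5, a chain of the fibronectin receptor, stood apart and lower, at 113 to 154 CPM in controls and 67.3 to 96.7 CPM in stressed libraries (log2 fold change -0.80 ± 0.18, edgeR adjusted p = 0.191). Itga4 and Itga8, integrin chains that can bind osteopontin, had log2 fold changes of -1.03 and -1.06, and Itga4 is also carried by lymphocytes. Of 5 peptidases related to Fap 3 were higher and 2 lower (median 0.08). Prep, a prolyl peptidase, was at 50.7 to 72.4 and 74.9 to 92.6 CPM, Dpp7 had a log2 fold change of -0.30 and Dpp4, the nearest relative of Fap, of -0.34.

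A longer list of other tumour fibroblast genes leaned higher, with 17 of 22 tested genes higher, 5 lower and the median at 0.63 on the log2 scale. At an unadjusted p under 0.05 in edgeR 1 of the 22 was higher and 0 lower, shares at or under those of the whole table, and for 0 of 22 did the groups stand apart. Mmp13, a collagenase, was at 4.94, 21.1 and 6.66 CPM in controls and 16.3, 199.5 and 47.7 CPM in stressed libraries (log2 fold change 3.01 ± 1.04, edgeR adjusted p = 0.266). Adam12, a metalloprotease of activated mesenchyme, was at 1.29, 8.98 and 6.93 CPM and 8.02, 23.7 and 21.0 CPM, and Lif, a cytokine of the IL-6 family, had a log2 fold change of 0.79. In Mmp13, Adam12 and Lif stressed replicate 2 was the highest library and control replicate 1 the lowest, as for Thbs2 and Inhba. Neutrophil markers summed to 15.0 CPM in control replicate 1 and to 114 and 113 CPM in control replicates 2 and 3. In stressed libraries they summed to 61.8, 245 and 236 CPM. None of 8 was at 0, and 8 of 8 were higher, with a median log2 fold change of 1.5. Retnlg stood apart, at 0.072 to 0.274 CPM in controls and 1.19 to 10.9 CPM in stressed libraries. Its adjusted p was 1.95e-06 in DESeq2 and 0.191 in edgeR. Its lowest control value lay below the level that a count of 0 allows. The part of neutrophils in the values of this longer list was not tested.

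**Figure D5:**
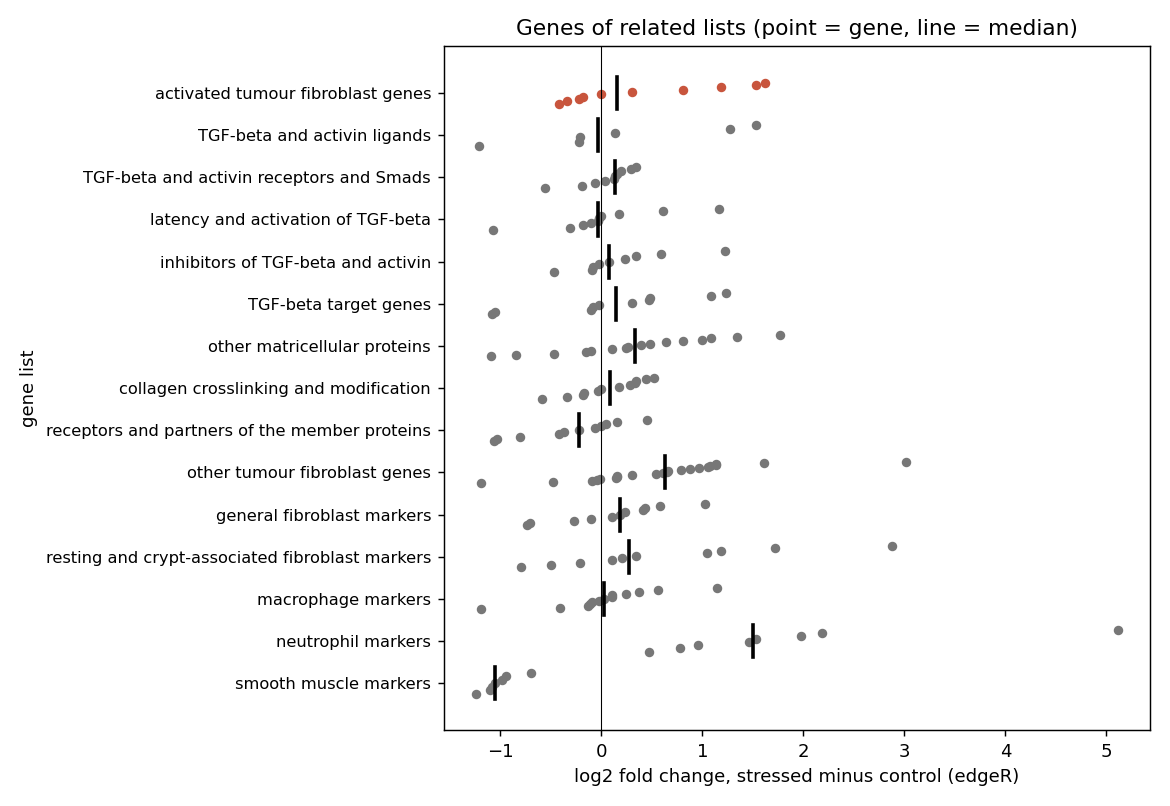
Log2 fold change, stressed minus control, of every tested gene in the lists (1 point per gene; black lines are medians). The 10 activated tumour fibroblast genes (red) run from -0.42 to 1.62 on both sides of 0, smooth muscle markers lie wholly below 0, and 17 of 22 other tumour fibroblast genes lie above 0.

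General fibroblast markers held 7 higher and 4 lower genes of 11, with a median log2 fold change of 0.19. The lower ones included Dpt and Lum, small matrix proteins of resting connective tissue, at -0.73 and -0.70, and the higher ones Pdgfrb, a growth factor receptor, at 0.41. Markers of resting and crypt-associated fibroblasts held 7 higher and 3 lower genes of 10 (median 0.28). F3, tissue factor, which marks subepithelial fibroblasts and is also made by epithelium, was at 52.7 to 66.2 CPM in controls and 83.6 to 155 CPM in stressed libraries (log2 fold change 1.04 ± 0.23, edgeR adjusted p = 0.191, DESeq2 adjusted p = 0.0025). Pi16, a marker of adventitial fibroblasts, had a log2 fold change of 2.87, and DESeq2 called it (adjusted p = 0.0245). It was at 0.0737 to 0.578 CPM in controls and at 1.13, 5.71 and 1.79 CPM in stressed libraries. Its value in control replicate 1 lay below the level that a count of 0 allows. Foxl1, a marker of subepithelial cells, had a log2 fold change of 1.72. It was at 1.73 to 6.42 CPM in controls and 4.78 to 24.7 CPM in stressed libraries, so the groups overlapped.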

How the data were processed

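RNA of colon tissue from 6 samples was sequenced, 3 per group by the treatment label. Replicates were numbered in accession order. Per the file headers, the table deposited by the authors holds raw read counts (whole numbers, 1 column per sample) and FPKM values, also computed by the authors. Tools in the submitters' processing notes, without their roles, are HISAT2 (2.1.0), featureCounts (1.6.2), edgeR (3.24.3), DESeq2 (1.22.1), fastp (0.19.3) and StringTie (1.3.4d), and the build is GRCm39. Which annotation and strand setting were used is not given in the sources used here.

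Low counts were removed with filterByExpr, libraries were scaled with TMM, and group was tested as the only term with edgeR 4.0.16 (quasi-likelihood, robust, R 4.3.3). P-values were adjusted by Benjamini-Hochberg over 15890 genes, with a threshold of 0.05. Each SE was obtained from the log2 fold change and its F statistic. CPM are TMM-scaled, and log2 CPM use a prior count of 2. FPKM served only to compare levels between genes. Alternatives were DESeq2 1.42.0, limma-voom 3.58.1, other scalings and filters, and leaving out each sample. Promoter windows are from RefSeq (GRCm38.p6). Ccl21a was not matched by symbol.

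The 10 genes and the lists were chosen with earlier results of these data known. All members are named. Of each other list described, up to 3 genes of smallest p with a mean of at least 1 CPM were to be named. The 5 genes of nearest profile are named too. Lists of cell type markers other than those of fibroblasts are given mainly as sums and counts, so not all of their 3 genes are named. Named outside these rules, after their values were seen, were Epcam, Myh11, Lgr5, Prox1, Wt1, Col3a1, Col1a2, Vim, Arg1 and Gp1ba. So were the markers given for being at or near 0 (Lrrn4, Upk3b and Gp9).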

Additional observations from a re-analysis of the deposited data

How the results depend on the processing

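The 4 members with the highest fold changes (Thbs2, Inhba, Spp1 and Lox) kept their direction under every scaling, filter, tool and left-out library tried, as did the lower means of Fap, Postn and Tgfb1. Pdpn, at -0.00097, had log2 fold changes of 0.032 by library size only, 0.0012 with DESeq2 size factors in edgeR, 0.0004 with no filter on low counts, 0.0011 in DESeq2 and 0.098 in limma-voom. With libraries left out in turn, Pdpn ran from -0.24 to 0.51, Tnc from -0.65 to 0.0285 and Thbs1 from -0.0148 to 0.64. Without a single library Fap ran from -0.63 to -0.14, Postn from -0.62 to -0.10 and Tgfb1 from -0.46 to -0.03. Spp1 was 3.00 in limma-voom, against 1.62 in edgeR. The cause was not tested.

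Over all genes 818 passed the threshold in DESeq2 and 0 in edgeR under every other setting and in limma-voom. Thbs2 was the 1 member called by DESeq2 (log2 fold change 1.19, adjusted p = 0.0425); over the edgeR and limma-voom settings its adjusted p ran from 0.236 to 0.555. Members at an unadjusted p under 0.05 numbered 1 in the main edgeR fit, where 7.82% of all genes were higher and 8.82% lower. They numbered 2 with no filter, 3 in DESeq2 and 2 in limma-voom. With a library left out they numbered 0 to 3 (0 without stressed replicate 2, 3 without control replicate 2 or stressed replicate 1). Shares of all genes were not computed for these other settings, so their counts cannot be set against a background. Members whose groups did not overlap numbered 2 with all libraries, where 12.5% of all genes were apart and higher and 11.2% apart and lower. With a library left out they numbered 2 to 6, 4 without control replicate 1 or 2 and 6 without stressed replicate 1. Fewer libraries overlap less often by construction. The matching shares of all genes were not computed, so these counts cannot be set against a background. The median log2 fold change of the members ran from -0.08 without control replicate 3 to 0.47 without control replicate 2.

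No paired analysis was possible because the labels name no pairs of control and stressed libraries. Depth limits Inhba most, at 10 to 131 counts per library.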
